A study of Mus musculus with 12 samples.

Results

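The receptor-interacting protein kinases and their partners in necroptosis were followed gene by gene through RNA-seq counts of mouse brain and skull after photothrombosis (PT), in which an injected dye, Rose Bengal, is lit by a laser so that the vessels of a small area close. The set was a fixed list of 10 of the 22317 genes in the table, namely the kinases Ripk1, Ripk2, Ripk3 and Ripk4, the pore former Mlkl, the nucleic acid sensor Zbp1, the adaptors Fadd and Tradd, the protease Casp8 and its relative Cflar. The mice were 8-week-old male wild-type BALB/c animals. The study's methods speak of biological replicates, and do not say whether each library came from 1 animal. There were 12 libraries in 4 groups of 3. SB2 and SB4 were labelled brain cortex on day 2 and day 4 after ischemic injury of the skull, and BS2 and BS6 were labelled interparietal bone on day 2 and day 6 after ischemic injury of the brain. All animals of these groups had PT of the other tissue, and uninjured controls were not analysed here. By their labels the groups set a later against an earlier day in the tissue next to the injured one.

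Necroptosis is a lytic form of programmed cell death. Death receptors such as the TNF receptor recruit TRADD and RIPK1, and FADD and caspase-8 may join them, with cFLIP, the product of Cflar, tuning the protease. Where caspase-8 is not active, RIPK1 or the sensor ZBP1 can bind RIPK3, which phosphorylates MLKL, and MLKL then breaks the plasma membrane. RIPK2 signals from the NOD receptors, and RIPK4 is known from skin differentiation. In the brain and in bone marrow the pathway is studied after ischemia and in inflammation, with much of its expression in immune cells and endothelium.

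The tissue labels were checked against marker genes before any result. Levels are given as CPM, the read counts divided by library size, which was adjusted with TMM factors. In the SB2 libraries, labelled brain, the summed level of 8 neuron genes was 33.8 to 70.6 CPM and that of 6 fibrous matrix genes, among them the collagens of bone, was 84900 to 100000 CPM. In BS2, labelled bone, the neuron genes summed to 9010 to 9260 CPM and the matrix genes to 19.2 to 45.3 CPM. SB4 had 9390 to 9450 CPM of the neuron genes and BS6 had 43700 to 179000 CPM of the matrix genes. The libraries labelled SB2 and BS2 thus went against their tissue labels: SB2 and BS6 held bone transcripts, and SB4 and BS2 held brain transcripts. The osteoblast gene Ibsp was at or under 3 counts in each SB4 and BS2 library. Within each labelled tissue the day and the tissue content changed together, so their parts in a difference between days cannot be told apart. Whether the SB2 and BS2 labels were exchanged was not tested. If they were, BS6 against SB2 and SB4 against BS2 would be the comparisons between days, and SB4 against SB2 and BS6 against BS2 would be comparisons of one tissue with the other. The names SB2, SB4, BS2 and BS6 below mean the libraries as labelled. Groups with like tissue transcripts, BS6 against SB2 and SB4 against BS2, were therefore compared as well. Total counts were 14126082 to 18972654 a library, so that a gene with no read may still have had up to 3 counts, or 0.158 to 0.217 CPM (counting error only).

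Promoter sequences are shown for the kinases Ripk1 and Ripk3 and for Mlkl, since these partners moved in the same direction and by unlike amounts in the results that follow. Each is the 250 bases upstream of an annotated start, from RefSeq on GRCm38.p6, written 5′ to 3′ on the strand of the gene, with CpG dinucleotides in capitals. Ripk1 lies at chr13:34002113-34002362 on the plus strand, Ripk3 at chr14:55788858-55789107 on the minus strand and Mlkl at chr8:111338206-111338455 on the minus strand.
Ripk1: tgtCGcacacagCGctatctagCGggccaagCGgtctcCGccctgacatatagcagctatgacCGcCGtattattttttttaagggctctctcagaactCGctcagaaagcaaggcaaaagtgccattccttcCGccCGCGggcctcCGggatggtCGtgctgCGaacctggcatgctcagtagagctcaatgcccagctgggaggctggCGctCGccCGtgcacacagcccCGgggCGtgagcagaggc
Ripk3: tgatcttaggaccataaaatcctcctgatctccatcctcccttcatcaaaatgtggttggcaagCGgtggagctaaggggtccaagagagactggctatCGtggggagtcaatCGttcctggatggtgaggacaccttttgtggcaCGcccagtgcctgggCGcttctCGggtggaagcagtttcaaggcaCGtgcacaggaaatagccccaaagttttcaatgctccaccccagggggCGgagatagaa
Mlkl: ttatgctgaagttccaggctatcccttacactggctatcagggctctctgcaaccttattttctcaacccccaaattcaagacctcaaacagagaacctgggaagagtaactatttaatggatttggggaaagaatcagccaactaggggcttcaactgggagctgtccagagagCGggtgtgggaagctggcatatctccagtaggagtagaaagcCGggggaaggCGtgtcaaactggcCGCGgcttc
The Ripk1 window has 19 CpG dinucleotides, against 8 for Ripk3 and 5 for Mlkl, and the median over 32851 promoters of this length was 6. An interferon response element (GAAA, 2 bases of any kind, GAAA), a STAT element (TTCNNNGAA) and an NF-kappaB element (GGGA, 1 base of any kind, TTTCC) were searched on both strands and none was found in these 3 windows. They occur in 2.98%, 7.02% and 0.356% of all promoters of this length. Promoters of 6 of the 10 genes were in the table, and those not shown had 19 (Fadd), 7 (Cflar) and 5 (Casp8) CpG dinucleotides. Ripk1 has a second listed promoter, at chr13:34002624-34002873, which has 32 CpG dinucleotides and 2 STAT element matches.

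The genes lie on mm10, by GENCODE M21, at chr13:34002363-34037147 (Ripk1, plus strand), chr4:16122733-16163647 (Ripk2, minus), chr14:55784995-55788865 (Ripk3, minus), chr16:97741933-97763787 (Ripk4, minus) and chr8:111311797-111338177 (Mlkl, minus). The partners lie at chr2:173206612-173218923 (Zbp1, minus), chr7:144577318-144582463 (Fadd, minus), chr1:58795374-58847503 (Casp8, plus), chr1:58711508-58758884 (Cflar, plus) and chr8:105258286-105264609 (Tradd, minus). Cflar and Casp8 are neighbours on chromosome 1. Of the 8344 exonic bases of Ripk1, 752 are shared with Serpinb6a on the opposite strand or the pseudogene Gm17084, and of the 3903 of Fadd, 239 are shared with the antisense gene Faddos. Reads on the bases shared with a gene of the opposite strand cannot be assigned without the strand setting, and strand would not separate Gm17084, which lies on the strand of Ripk1. The other 8 genes share no exonic base.

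Nearly the whole set was higher in the groups with bone transcripts than in those with brain transcripts. In SB4 against SB2, 8 of the 9 genes tested were called lower and 0 higher, where 28.6% of all 17293 genes tested were called lower (edgeR's quasi-likelihood test, Benjamini-Hochberg adjusted p under 0.05 and a change over 1 on the log2 scale). In BS6 against BS2, 8 of 9 were called higher and 0 lower, where 29.0% of 17311 genes were called higher. The median log2 fold change of the genes tested was -3.03 and 3.25, and that of all genes was -0.01 and 0.02. In both comparisons the gene outside the calls was Ripk2, whose change was under 1 and whose adjusted p passed, as that of the other 8 and of 83.3% of all genes in SB4 against SB2 and 75.0% in BS6 against BS2. Ripk4 had too few counts to pass the filter of these fits. Ripk3, Mlkl and Zbp1 passed the filter only through the group where they were high, SB2 or BS6, so the filter set the direction of their calls. With at least 10 counts in every library these genes were not tested, and 5 genes were called lower in SB4 and 5 higher in BS6. The CPM of the 2 groups did not overlap for any of the 9 genes in either comparison, as for 85.6% and 80.7% of all genes tested.

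**Figure D1:**
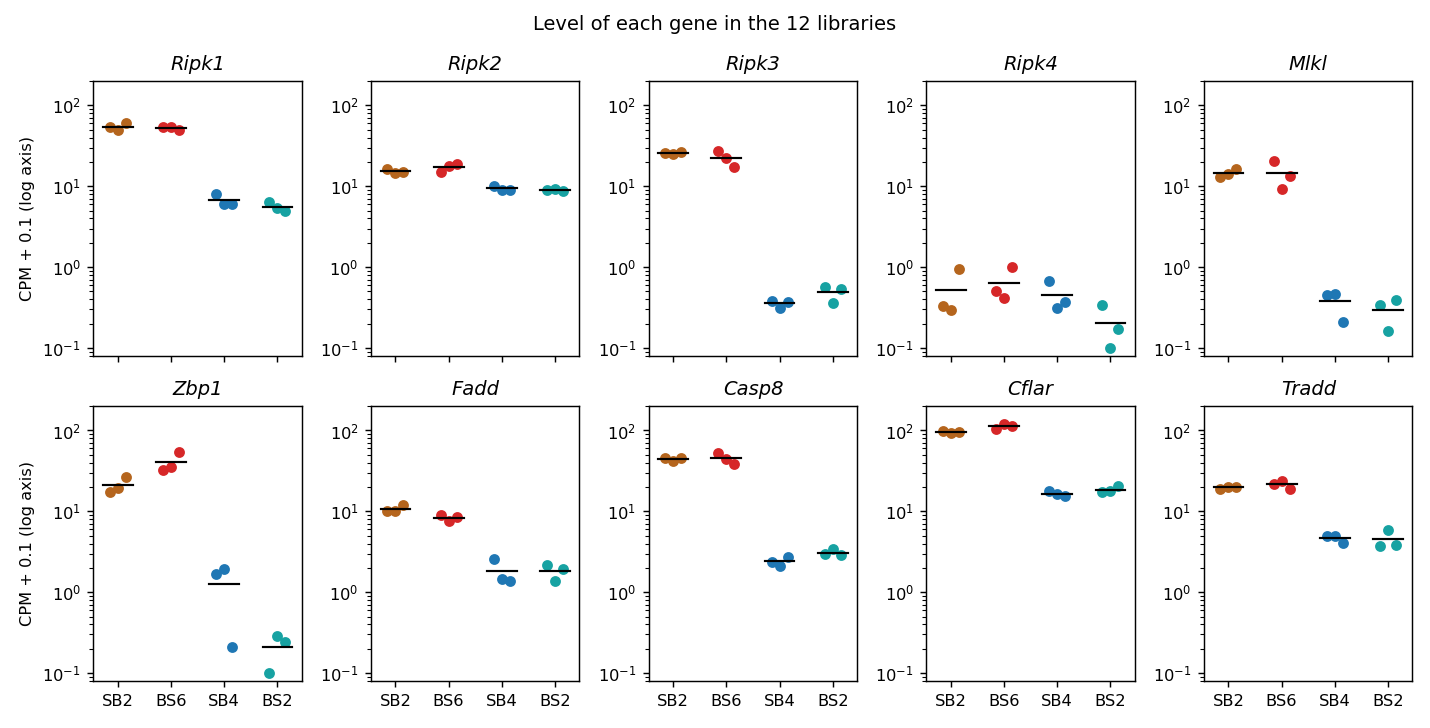
Level of each of the 10 genes in CPM plus 0.1, on a log axis, in the 12 libraries (points, replicates 1 to 3 from left to right) with the group mean (line), by group as labelled. SB2 and BS6 sit far above SB4 and BS2 for 8 genes, by less for Ripk2, and Ripk4 is near the limit of detection in all 4 groups.

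Ripk1, the kinase that decides between survival signalling and death at the TNF receptor, was at 53.5, 49.5 and 59.8 CPM in SB2 and at 54.0, 53.5 and 49.3 CPM in BS6. It was at 7.89, 6.02 and 5.98 CPM in SB4 and at 6.28, 5.29 and 4.85 CPM in BS2. Both groups with bone transcripts were thus high in every library and overlapped each other, and both groups with brain transcripts were low and overlapped each other. The mean fell from 54.3 ± 5.22 (SD, n = 3) in SB2 to 6.63 ± 1.10 in SB4, a log2 fold change of -3.03 (SE 0.12, adjusted p = 8.96e-10 by edgeR's quasi-likelihood test). From BS2 to BS6 it rose by 3.25 (SE 0.14, edgeR's adjusted p = 7.27e-06). Even the low groups had 67 to 114 reads a library, so Ripk1 mRNA was measurable in all 12 libraries.

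Ripk3, the kinase that activates MLKL, had the largest fall of the set in SB4 against SB2. Its level was 25.5, 24.9 and 26.6 CPM in SB2 and 27.0, 22.5 and 17.1 CPM in BS6. In SB4 it had 4, 4 and 5 reads and in BS2 8, 4 and 6 reads, or 0.21 to 0.47 CPM over both groups. No library of the first pair of groups came near any of the second. The log2 fold change was -6.60 in SB4 against SB2 (SE 0.18, edgeR's adjusted p = 3.5e-11), where the SB2 mean was 99.9 times that of SB4. In BS6 against BS2 it was 5.81 (SE 0.31, edgeR's adjusted p = 1.3e-05), a ratio of means of 57.3.

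Mlkl, which forms the membrane lesion, was at 12.9, 14.2 and 16.2 CPM in SB2. The 3 BS6 libraries were farther apart, at 20.4, 9.07 and 13.5 CPM. SB4 had 5, 7 and 2 reads and BS2 had 4, 1 and 4. As for Ripk3, the transcripts were plentiful in every library with bone transcripts and near the limit of detection in the others. The log2 fold change was -5.67 (SE 0.29, edgeR's adjusted p = 5.79e-09) in SB4 against SB2 and 6.14 (SE 0.53, edgeR's adjusted p = 8.31e-05) in BS6 against BS2.

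Zbp1, the interferon-induced sensor of Z-form nucleic acids that can bind RIPK3 without RIPK1, had no more than 3 reads in any BS2 library. It was at 17.4, 19.5 and 26.1 CPM in SB2 and at 32.0, 34.8 and 53.7 CPM in BS6, so that each BS6 library was above each SB2 library. In SB4 it had 22, 35 and 2 reads, the third library far below the other two. In BS2 it had 0, 3 and 2 reads. Against a floor of 3 counts per library, Zbp1 was at least 206-fold higher in BS6 than in BS2 (edgeR's adjusted p = 2.69e-05). The change from SB2 to SB4 was -4.16 on the log2 scale (SE 0.59, edgeR's adjusted p = 0.00101).

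Casp8, the initiator protease that cleaves RIPK1 and RIPK3, was at 45.7, 42.3 and 44.9 CPM in SB2 and at 52.4, 44.1 and 38.3 CPM in BS6. It was at 2.28, 2.00 and 2.63 CPM in SB4 and at 2.85, 3.32 and 2.82 CPM in BS2. The lowest library with bone transcripts was therefore far above the highest with brain transcripts. The log2 fold change was -4.25 (SE 0.12, edgeR's adjusted p = 4.23e-11) in SB4 against SB2 and 3.90 (SE 0.17, edgeR's adjusted p = 7.84e-06) in BS6 against BS2. In SB4 every library was below every BS2 library.

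Cflar, which encodes the caspase-8 relative that holds the protease in check, had the highest CPM of the set in all 4 groups. It was at 98.7, 93.1 and 96.2 CPM in SB2 and at 105, 119 and 115 CPM in BS6, and at 17.8, 16.1 and 15.5 CPM in SB4 and 17.4, 17.6 and 20.6 CPM in BS2. The change was smaller than that of Casp8, at -2.54 (SE 0.08, edgeR's adjusted p = 7.56e-11) and 2.61 (SE 0.11, edgeR's adjusted p = 7.42e-06) on the log2 scale.

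Fadd, the adaptor between receptors and caspase-8, was at 9.89, 9.91 and 11.98 CPM in SB2 and at 8.87, 7.44 and 8.47 CPM in BS6. It was at 2.49, 1.37 and 1.26 CPM in SB4 and at 2.07, 1.28 and 1.81 CPM in BS2. Its change was -2.65 (SE 0.25, edgeR's adjusted p = 1.27e-06) and 2.26 (SE 0.24, edgeR's adjusted p = 0.000189). Tradd, the adaptor that brings RIPK1 to the TNF receptor, was at 19.03, 19.82 and 20.02 CPM in SB2 and at 21.68, 23.64 and 19.01 CPM in BS6. In SB4 it was at 4.91, 4.86 and 3.95 CPM and in BS2 at 3.67, 5.80 and 3.69 CPM. Both adaptors fell and rose less than the kinase and the pore former at the end of the pathway. The change of Tradd was -2.09 (SE 0.13, edgeR's adjusted p = 4.15e-08) and 2.29 (SE 0.23, edgeR's adjusted p = 0.000146).

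Ripk2, the kinase of the NOD receptors, was the most even of the measurable genes. It was at 16.4, 14.4 and 14.7 CPM in SB2, at 15.1, 17.6 and 18.9 CPM in BS6, at 10.1, 8.97 and 8.94 CPM in SB4 and at 9.01, 9.06 and 8.68 CPM in BS2. The groups with bone transcripts still did not overlap those with brain transcripts. Its log2 fold change was -0.69 (SE 0.12, edgeR's adjusted p = 0.00024) in SB4 against SB2 and 0.95 (SE 0.14, edgeR's adjusted p = 0.00086) in BS6 against BS2, both under the size that a call needed. Ripk4 had 4, 3 and 14 reads in SB2, 6, 5 and 14 in BS6, 8, 4 and 5 in SB4 and 4, 0 and 1 in BS2. The highest library, a BS6 one, was at 0.905 CPM. The BS6 libraries were above the BS2 libraries, with a ratio of means of 5.23 from at most 14 reads a library. This ratio depends strongly on BS2 replicate 1, at 0.237 CPM beside 0 and 0.072 CPM in BS2 replicates 2 and 3. Without the filter on low counts the log2 fold change was 2.26 in BS6 against BS2 (edgeR's adjusted p = 0.0644), and Ripk4 was not called in any of the 4 comparisons. The summed level of 5 keratinocyte genes, the cell type in which RIPK4 is best known, was 7.16 to 17.2 CPM over all 12 libraries.

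The difference between both changes over days was tested in 1 fit of all 12 libraries, and all 9 genes tested were called higher in BS6 against BS2 than in SB4 against SB2, as were 37.8% of 18068 genes. It was largest for Zbp1, Ripk3 and Mlkl, at 12.61 (SE 0.95), 12.42 (SE 0.35) and 11.82 (SE 0.64) on the log2 scale, and smallest for Ripk2, at 1.65 (SE 0.17, edgeR's adjusted p = 2.01e-06). The contrast sets SB2 and BS6 against SB4 and BS2, the groups with bone against those with brain transcripts. The day and the tissue content cannot be told apart in it, and it is not independent of the comparisons it joins. Zbp1, Ripk3 and Mlkl passed the filter of this fit only through SB2 and BS6, where they were high, so the filter set their direction. With at least 10 counts in every library they were not tested, and 6 genes of the set were called. The value of Zbp1 depends on the prior count, with BS2 at the floor, and was 11.98 to 13.26 with 1 library left out, beside 12.18 to 12.60 for Ripk3 and 11.40 to 12.12 for Mlkl, so their order is not settled. Ripk4 did not pass the filter of this fit. It gave 2.53 without the filter (edgeR's adjusted p = 0.0725), and with 1 library left out it was tested in 10 of 12 fits, at an adjusted p of 0.0278 to 0.133. It was called in 4 of these, those without BS2 replicate 1, BS6 replicate 2, SB2 replicate 2 or SB4 replicate 1.

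**Figure D2:**
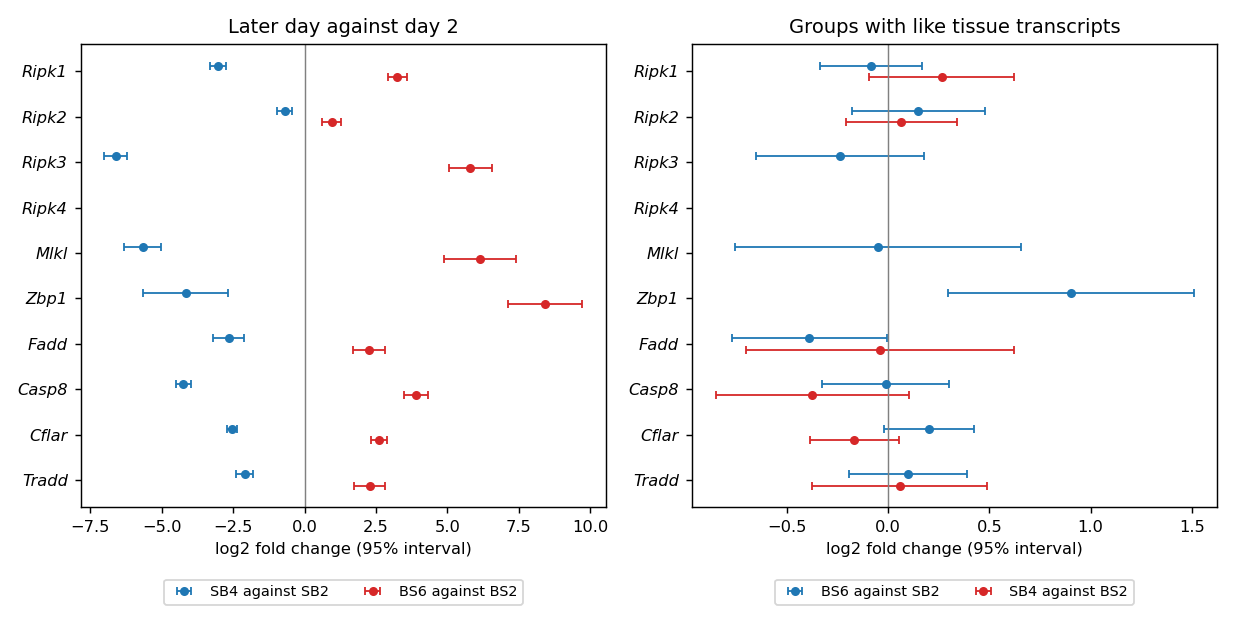
Log2 fold change (points) with its 95% interval (bars) for each gene tested, on the left for the later against the earlier day and on the right for groups with like tissue transcripts; the axes differ in range. All 9 genes lie below 0 in SB4 against SB2 and above 0 in BS6 against BS2, and on the right most intervals span 0.

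Groups of like tissue transcripts were compared in the same way. In BS6 against SB2, 0 of 9 genes were called by edgeR's quasi-likelihood test, with 1.86% of all 16329 genes called in either direction. Over all genes DESeq2 called 753 higher and 305 lower, and with the replicate block or without any 1 SB2 library none was called. Of the 9 genes DESeq2 also called none. For an unadjusted p under 0.05 the share of all genes was not computed, and 2 of the 9 genes had such a p. These were Zbp1, higher in BS6 by 0.90 (SE 0.25, 95% interval 0.30 to 1.51, edgeR's adjusted p = 0.0833), and Fadd, lower by 0.39 (SE 0.16, 95% interval -0.77 to -0.01, edgeR's adjusted p = 0.166). Over the alternatives the adjusted p of Zbp1 ranged from 0.0146, with DESeq2, to 0.27, and its log2 fold change from 0.63 to 1.09. The libraries of the groups did not overlap for Zbp1, Fadd and Cflar, 3 of 9 genes, as for 38.1% of all genes tested. For Ripk1 the interval of the log2 difference was -0.34 to 0.17 and for Casp8 -0.33 to 0.30, so differences of a doubling lay outside both. For Mlkl it was wider, -0.76 to 0.66.

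In SB4 against BS2, 0 of the 6 genes tested were called, by edgeR or by DESeq2, and 0 had an unadjusted p under 0.05, with 0.147% of all 16278 genes called in either direction. The intervals of the log2 differences were -0.10 to 0.62 for Ripk1, -0.21 to 0.34 for Ripk2, -0.70 to 0.62 for Fadd, -0.85 to 0.10 for Casp8, -0.39 to 0.05 for Cflar and -0.38 to 0.49 for Tradd. Casp8 was the 1 gene tested whose libraries did not overlap, against 16.9% of all genes tested. Ripk3, Mlkl, Zbp1 and Ripk4 did not pass the filter of this test. Zbp1 had a mean in SB4 at least 6.01-fold above the floor in BS2, a value that rests on SB4 replicates 1 and 2. Without a filter on low counts its log2 difference was 3.35 (edgeR's adjusted p = 0.359), and without SB4 replicate 3 it passed the filter and was called, at 3.90 (edgeR's adjusted p = 0.000579). These fitted values depend on the prior count, since BS2 was at the floor.

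Levels of different genes were compared per kilobase of exon, over the union of its annotated exons. In SB2 the order was Casp8 at 15.3 CPM per kilobase, Ripk3 at 11.2, Tradd at 10.5, Cflar at 7.58, Ripk1 at 6.50, Mlkl at 6.27, Zbp1 at 5.96, Ripk2 at 5.39, Fadd at 2.71 and Ripk4 at 0.118. From Ripk1 to Ripk2 each gene overlapped the next in its library ranges, and the other neighbours did not overlap. In SB4 it was Ripk2 that led, at 3.32 CPM per kilobase, before Tradd at 2.45, Cflar at 1.30, Casp8 at 0.796 and Ripk1 at 0.794. Fadd followed at 0.437, Zbp1 at 0.333, Mlkl at 0.121, Ripk3 at 0.112 and Ripk4 at 0.0978. Casp8 and Ripk1 overlapped there, as did each neighbour from Fadd down to Ripk4. BS2 had Ripk2 first too, at 3.17 CPM per kilobase, with Tradd at 2.35, Cflar at 1.46, Casp8 at 1.03 and Ripk1 at 0.656. BS6 had Casp8 first at 15.5 CPM per kilobase, then Tradd at 11.5, Zbp1 at 11.4 and Ripk3 at 9.69. Ripk3 thus went from second place in SB2 to ninth in SB4, while Ripk2 went from eighth to first. In BS2 the library ranges of Ripk2 and Tradd overlapped, and in BS6 those of Casp8 and Zbp1, of Tradd and Zbp1, of Tradd and Ripk3, and of Zbp1 and Ripk3.

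Ratios of counts within a library do not depend on how the libraries were scaled. The log2 ratio of Ripk3 to Ripk1 was -1.07, -0.99 and -1.17 in SB2 and -1.003, -1.247 and -1.522 in BS6. It was -4.63, -4.67 and -4.32 in SB4 and -3.65, -4.21 and -3.38 in BS2. The libraries with bone transcripts thus had far more Ripk3 for each Ripk1 read. The difference was -3.46 in SB4 against SB2 and 2.49 in BS6 against BS2, and the two-sided exact permutation p was 0.1 for both, the smallest that 3 against 3 libraries can give (adjusted p = 0.24 over 12 such tests). SB4 was also below BS2, by 0.79, at the same exact permutation p of 0.1. That difference rests on 4, 4 and 5 reads of Ripk3 in SB4 and 8, 4 and 6 in BS2. The nearest libraries of the groups lay close together, at -4.32 and -4.21. The log2 ratio of Cflar to Casp8 went the other way. It was 1.11, 1.14 and 1.10 in SB2 and 1.00, 1.43 and 1.58 in BS6, and 2.95, 2.99 and 2.54 in SB4 and 2.60, 2.40 and 2.85 in BS2. There was thus more of the inhibitor's mRNA for each read of the protease in the libraries with brain transcripts, by 1.71 in SB4 against SB2 and by 1.28 in BS2 against BS6 (exact permutation p = 0.1 for both). The ratio of Mlkl to Ripk3 had means of -0.83 in SB2, -0.69 in BS6, -0.04 in SB4 and -1.01 in BS2. With single-digit counts of both genes in SB4 and BS2 its spread was up to 0.98 (SD, n = 3), and the exact permutation p was 0.3 or more in each comparison.

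Markers of some other cells moved with the set, while those of astrocytes, oligodendrocytes and, as given above, neurons went the other way. Ptprc, the pan-leukocyte gene CD45, was at 64.5 to 83.8 CPM in SB2 and 97.8 to 320.0 CPM in BS6, and at 2.25 to 5.75 CPM in SB4 and 2.87 to 3.44 CPM in BS2. The 9 microglia and macrophage genes summed to 840 to 854 CPM in SB2, 823 to 979 CPM in BS6, 200 to 217 CPM in SB4 and 196 to 210 CPM in BS2. The 4 endothelium genes summed to 569 to 596, 553 to 758, 69.8 to 84.8 and 50.6 to 79.4 CPM in the same order. Of the 7 neutrophil genes in the table, 5 were at or under 3 counts in each BS2 library and 2 in each SB4 library, and none in SB2 and BS6. Like most of the 10 genes, all of these lists were higher in SB2 and BS6 than in SB4 and BS2. The 6 astrocyte genes were lower there, at 728 to 845 CPM in SB2, 358 to 712 in BS6, 4620 to 4950 in SB4 and 4640 to 5190 in BS2. So were the 6 oligodendrocyte genes, at 110 to 208, 125 to 311, 2930 to 3950 and 2680 to 3010 CPM in the same order. The part of any of these cells in the differences was not tested. In bulk tissue fewer cells of a type and less RNA per cell cannot be told apart.

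The BS6 libraries differed widely in the summed mRNA of some marker lists. Relative to the SB2 mean, the neutrophil genes stood at 1.24, 21.6 and 2.89 in BS6 replicates 1, 2 and 3, Ptprc at 1.60, 4.42 and 1.35, and the fibrous matrix genes at 1.56, 0.48 and 1.97. The endothelium genes were at 1.29, 0.942 and 1.09 and the microglia and macrophage genes at 1.16, 0.972 and 1.14. On the same scale Ripk1 was at 1.00, 0.99 and 0.91, Casp8 at 1.18, 0.995 and 0.865, and Cflar at 1.09, 1.24 and 1.19. Mlkl was at 1.41, 0.628 and 0.931 and Fadd at 0.838, 0.703 and 0.8, with replicate 1 highest and replicate 2 lowest, the order of the endothelium and of the macrophage genes and not that of the neutrophil genes. Tradd, at 1.1, 1.2 and 0.969, had the order of Ptprc. Ripk3 was lowest in replicate 3, at 0.669, where Zbp1 was highest at 2.56. Of the 9 genes tested, Cflar was the one with its BS6 libraries in the same order as the neutrophil genes, over a range of 1.09 to 1.24. With 3 libraries such orders are a description, and the part of these cells in the levels was not tested.

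**Figure D3:**
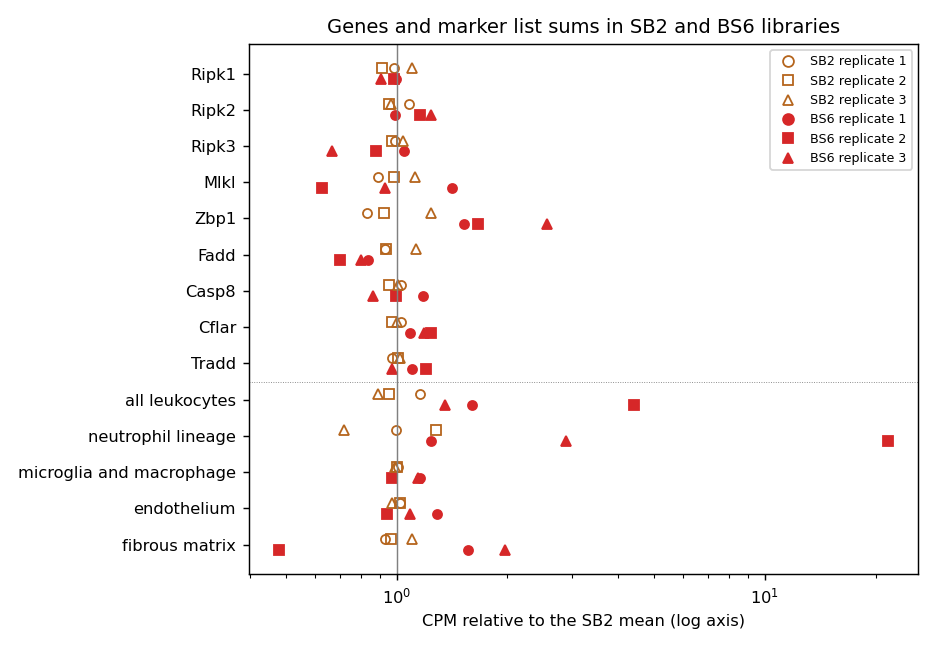
Level of 9 genes (above the dotted line) and of the sums of 5 marker lists (below it) in the 3 SB2 and the 3 BS6 libraries, in CPM relative to the SB2 mean on a log axis. The genes lie between 0.628 and 2.56 times the SB2 mean, while the neutrophil genes of BS6 replicate 2 lie at 21.6 times.

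Zbp1 was set beside 8 interferon-induced genes (Ifit1, Ifit3, Isg15, Irf7, Oasl2, Rsad2, Usp18 and Ifi44), a list chosen after its values were seen and given as a description. Their summed level in BS6 was 339, 179 and 1000 CPM in replicates 1, 2 and 3, beside Zbp1 at 32.0, 34.8 and 53.7 CPM. In SB2 it was 228, 240 and 325 CPM, in the same order as Zbp1. In SB4 the sum was 40.7, 40.8 and 12.1 CPM, and the library with the low sum was the one with 2 reads of Zbp1. BS2 had 7.70, 10.8 and 13.4 CPM. The library of SB4 without Zbp1 reads above the floor was thus like BS2 in these genes, and the BS6 library highest in Zbp1 was the highest in them. The other BS6 libraries did not follow this order: replicate 2 had the lowest sum of its group, below each SB2 library, and more Zbp1 than BS6 replicate 1 and each SB2 library.

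**Figure D4:**
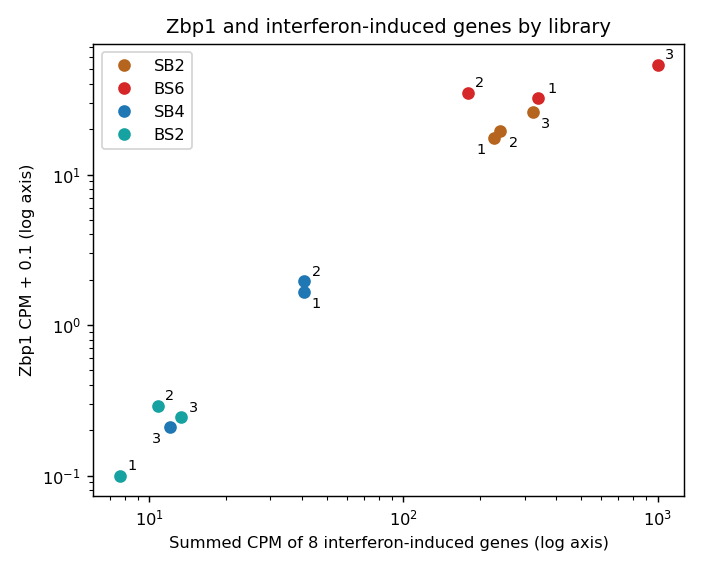
Zbp1 in CPM plus 0.1 against the summed CPM of 8 interferon-induced genes, both on log axes, for the 12 libraries, coloured by group and numbered by replicate. SB4 replicate 3 lies with the BS2 libraries, apart from SB4 replicates 1 and 2, and BS6 replicate 3 is highest on both axes.

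Genes whose levels were most alike over the 12 libraries were read from Pearson's r of log2(CPM + 1) over 16113 genes. These 12 points fall into a high and a low cluster that divide as the tissue content does, so values close to 1 are common and are given as a description only. The top gene was H13 for Ripk1 (r = 0.997), Pabpc1 for Ripk3 (0.999), Lrig3 for Mlkl (0.999), Eef1b2 for Casp8 (0.999) and Notch2 for Cflar (0.998). It was Ptpn9 for Fadd (0.993), Gm15427 for Tradd (0.996) and Tor1aip1 for Ripk2 (0.989). Zbp1 was most like Fcgr1, the high-affinity Fc receptor of myeloid cells (0.996), then Trim25, a ubiquitin ligase of RNA sensing (0.994), and B2m, the light chain of MHC class I (0.993). After the group means were taken away, the top r among the 16113 genes was 0.909 to 0.974 for the 9 genes, and that of Zbp1, with the interferon-induced GTPase gene Gbp3, was 0.937, within this range. These values too are a description only. Within groups the genes of the set did not move as one: r between their deviations was 0.76 for Ripk1 and Fadd and 0.64 for Ripk3 and Casp8, 0.43 for Ripk3 and Mlkl, and -0.65 for Ripk2 and Ripk3.

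The wider pathway was followed in 8 lists of 80 genes, of which 79 were in the table. In SB4 against SB2, 38 of 77 genes tested were called lower and 10 higher, with a median log2 fold change of -0.998, where 28.6% of all genes were lower and 27.8% higher. In BS6 against BS2, 42 of 78 were called higher and 8 lower, with a median of 1.2, where 29.0% of all genes were higher and 26.5% lower. These shares of all genes are the background of each list count below. Tnf, Nod2 and Nlrp3, which are among the genes called, passed the filter only through SB2 or BS6, where they were high. The filter thus set the direction of their calls in these counts. Death receptors and ligands moved the same way as the set, with 8 of 8 genes tested lower in SB4 and 8 of 9 higher in BS6. Tnf, the ligand, was higher in BS6 by at least 34.4-fold over the floor in BS2 (edgeR's adjusted p = 0.00254), with a mean of 6.73 ± 6.02 CPM (SD, n = 3) in BS6. Lta, a related ligand, was the 1 gene of this list not called there (0.35, SE 0.47, edgeR's adjusted p = 0.524). Tnfrsf1a, the receptor above RIPK1, named after its values were seen, fell from 165.3 CPM in SB2 to 6.05 CPM in SB4 and rose from 6.51 CPM in BS2 to 166.6 CPM in BS6.

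Nucleic acid sensing and interferon input had 9 of 12 genes lower in SB4 and 1 higher, and 9 of 12 higher in BS6. Irf1, an interferon-responsive transcription factor, rose by 4.32 (SE 0.36, edgeR's adjusted p = 7.87e-05) in BS6 against BS2, while Adar, the RNA editor that keeps self RNA from ZBP1, had a log2 fold change of -0.98 there (SE 0.23, edgeR's adjusted p = 0.00775). Adar was called higher in SB4 against SB2, at 1.90 (SE 0.07, edgeR's adjusted p = 1.83e-10). Tlr3, a sensor of double-stranded RNA named after its values were seen, was at 14.4 to 16.7 CPM in the 4 group means and was not called in either. The NOD receptors and partners of Ripk2 had 4 of 6 genes lower in SB4 and 4 of 6 higher in BS6. Nod2, a receptor of bacterial cell wall fragments, gave 4.28 in BS6 against BS2 (SE 0.43, edgeR's adjusted p = 0.000164), more than Ripk2 itself. It passed the filter only through BS6, with a mean of 0.294 CPM in BS2, so the filter set its direction. The endosomal transporter gene Slc15a4 gave 0.34 (SE 0.16, edgeR's adjusted p = 0.102).

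Executioners and pore formers had 8 of 11 genes lower and 1 higher in SB4, and 9 of 11 higher and 1 lower in BS6. Gsdmd, which encodes the pore former of pyroptosis, rose by 5.29 in BS6 against BS2 (SE 0.34, edgeR's adjusted p = 2.71e-05), beside 6.14 for Mlkl, and Casp9, the initiator of the mitochondrial route, fell by 1.14 (SE 0.14, edgeR's adjusted p = 0.000392). The ubiquitin and kinase complex at the receptor had 5 of 18 genes lower and 1 higher in SB4, and 7 higher and 1 lower in BS6, from Ikbke, an inducible kinase of interferon signalling (5.02, SE 0.25, edgeR's adjusted p = 1.07e-05), to Tab3, an adaptor of the kinase TAK1 (-1.40, SE 0.12, edgeR's adjusted p = 8.29e-05). Over all genes 28.6% were lower and 27.8% higher in SB4 against SB2, and 29.0% higher and 26.5% lower in BS6 against BS2. Among 8 deubiquitinases and brakes 2 were lower and 3 higher in SB4, and 3 higher and 3 lower in BS6. Tnfaip3, which encodes the brake A20, rose by 1.62 in BS6 (SE 0.25, edgeR's adjusted p = 0.00108) and Cyld, a deubiquitinase of RIPK1, fell by 1.65 (SE 0.20, edgeR's adjusted p = 0.00039).

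The cofactors of MLKL and membrane repair genes had 1 of 11 lower and 3 higher in SB4, and 1 higher and 3 lower in BS6. Aurka, a mitotic kinase, rose by 3.87 in BS6 (SE 0.47, edgeR's adjusted p = 0.00041) and the chaperone gene Hsp90aa1 fell by 2.77 (SE 0.16, edgeR's adjusted p = 1.79e-05). Of the other RIP family kinases 3 were tested, with 1 lower and 1 higher in SB4, and 1 higher in BS6. Lrrk1 rose by 4.29 in BS6 (SE 0.28, edgeR's adjusted p = 2.74e-05), and its relative Lrrk2 gave -0.65 (SE 0.44, edgeR's adjusted p = 0.225). In SB4 against SB2, Lrrk1 fell by 4.54 (SE 0.12, edgeR's adjusted p = 1.82e-11) and Lrrk2 rose by 1.66 (SE 0.08, edgeR's adjusted p = 4.13e-09). In BS6 against SB2, 2 of 78 pathway genes were called by edgeR, which called 1.86% of all genes. DESeq2 called 5 of them, and over all genes 753 higher and 305 lower. Tnfsf10, the death ligand TRAIL, was higher in BS6 by 1.08 and Tnfrsf12a, the receptor of TWEAK, was lower by 1.60 (edgeR's adjusted p = 0.0276 for both). Both calls were lost with the replicate block (adjusted p = 0.0995 for both) and without any 1 library other than BS6 replicate 2, at an adjusted p of 0.0503 to 0.181. In SB4 against BS2, 0 of 74 were called by edgeR or by DESeq2. An unadjusted p of edgeR under 0.05 was held by 25 of 78 in BS6 against SB2 and by 12 of 74 in SB4 against BS2. The share of all genes with such a p was not computed, so these 2 counts have no background.

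**Figure D5:**
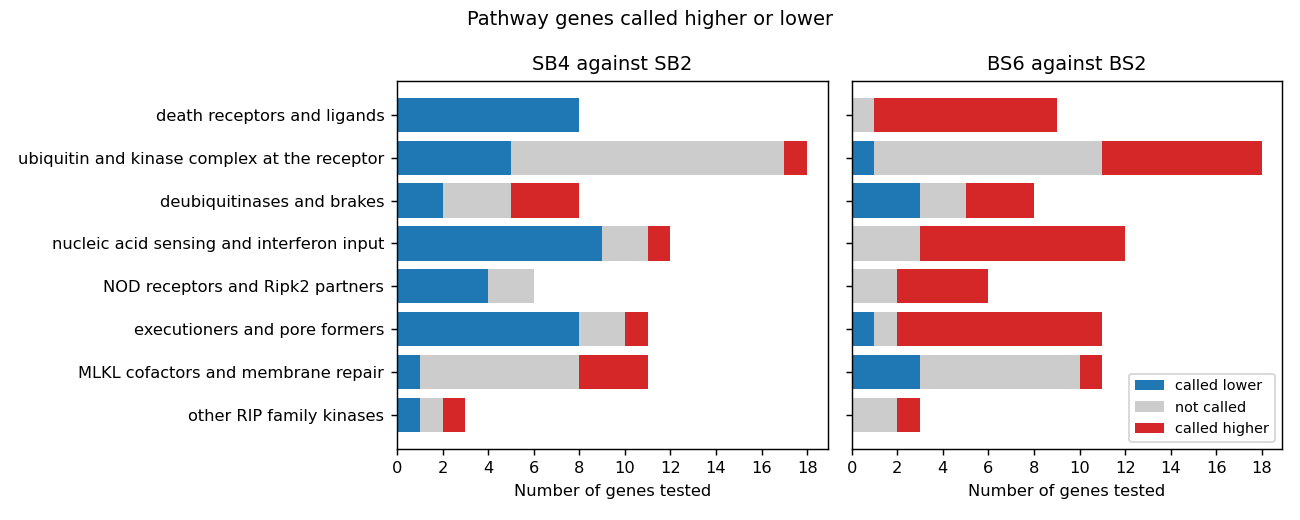
Number of genes called lower, not called and called higher in each of 8 pathway lists, in SB4 against SB2 (left) and BS6 against BS2 (right). Death receptors, nucleic acid sensing, NOD partners and executioners are mostly lower on the left and mostly higher on the right, and the other lists have fewer calls or calls in both directions.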

How the data were processed

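Reads were filtered by the authors with fastp and aligned with HISAT2 2.1.0 on mm10, which the submitters' processing notes name too, and the authors deposited raw read counts per gene symbol. The counting program, annotation and strand setting are not given in the sources used here, nor whether the counts precede the ComBat_seq correction. The table held 22317 symbols, 0 columns of other samples, and 14126082 to 18972654 counts a library.

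The counts were tested in R 4.3.3 by the quasi-likelihood test of edgeR 4.0.16, with TMM factors, robust fits and genes kept by filterByExpr (minimum count 10). Each fit held 2 groups of 3 libraries, and Benjamini-Hochberg adjustment covered all genes tested. The difference between the changes over days was a contrast over all 12 libraries. Genes were called where the adjusted p was under 0.05 and the log2 fold change above 1 in size. The standard error (SE) was taken from the fold change and the F statistic, and 95% intervals used the degrees of freedom of the test. TMM factors over the 12 libraries gave CPM, and exonic lengths of GENCODE M21 gave levels per kilobase. Where each library of a group had at most 3 counts, the fold was computed against 3 counts per library, which covers counting error only. Count ratios, with 0.5 added to each count, were tested by exact two-sided permutation. The scripts were tested on simulated data.

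The alternatives were DESeq2 1.42.0, other scaling factors, other filters, a replicate block, a fit of all 12 libraries, adjusted p alone, each library left out, and other pseudocounts of the ratios. The genes, lists, comparisons and marker lists were chosen with earlier results of these data known. Named were the 10 genes, and in each pathway list the genes with the largest and the smallest log2 fold change in BS6 against BS2 and any called between groups of like tissue transcripts. This rule allowed 3 genes a list, and the death receptor list has more. Genes named outside it are marked as such.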

Additional observations from a re-analysis of the deposited data

Results flagged for a closer look

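The change from the earlier to the later day differed between both labelled tissues for each of the 9 genes that passed the filter on low counts, by the contrast of BS6 against BS2 minus SB4 against SB2 over all 12 libraries (edgeR's quasi-likelihood test, adjusted by Benjamini-Hochberg). On the log2 scale the difference was 12.61 for Zbp1, 12.42 for Ripk3 and 11.82 for Mlkl. It was 8.17 for Casp8 and 6.29 for Ripk1. For Cflar, Fadd and Tradd it was 5.16, 4.91 and 4.39, and for Ripk2 it was 1.65. The adjusted p was at most 2.01e-06, the value of Ripk2. The same contrast was called higher for 37.8% of all genes tested. Zbp1, Ripk3 and Mlkl passed the filter only through SB2 and BS6, where they were high, so the filter set their direction. The value of Zbp1 depends on the prior count of the fit, since all 3 BS2 libraries had at most 3 counts. In each labelled tissue 1 of the days had bone transcripts and the other brain transcripts, so the day and the tissue content cannot be told apart in these differences.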

How the results depend on the processing

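Of 980 recomputed values 927 were judged the same as the main one, by a rule that differed with the kind of value. The change of a gene had to keep its direction and its side of the threshold. A ratio had only to keep its sign, and a count of calls only to stay near the main count. By this rule 7138 genes higher in SB4 against SB2 by adjusted p alone were the same as 4799. With at least 10 counts in every library 5 members were called lower in SB4 against SB2 and 5 higher in BS6 against BS2, since fewer of them were tested. All genes called higher and lower in BS6 against SB2 numbered 753 and 305 with DESeq2, 947 and 326 with all 12 libraries in one fit, and 373 and 559 by adjusted p alone. Leaving out 1 library gave 0 to 397 and 0 to 270. In SB4 against BS2 these numbers were 25 and 18 with DESeq2, 26 and 24 without a filter, 3 and 5 with all 12 libraries, and 93 and 60 by adjusted p alone, with 9 higher at 10 counts in every library. Leaving out 1 library gave 11 to 68 higher and 7 to 47 lower, with 0 to 1 member higher. The cause was not tested.

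No pairing by replicate number was seen. Same-numbered libraries correlated at -0.0909 to 0.0626 in their deviations from the group means, and differently numbered ones at -0.134 to 0.168. With 3 libraries a group these values cannot decide whether libraries were paired. With the replicate block 0 genes were called higher and 0 lower in BS6 against SB2, and 22 and 39 in SB4 against BS2. The number of members called did not change with it in any comparison.

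Small differences changed sign. With 1 library left out, the log2 fold change in BS6 against SB2 was -0.386 to 0.193 for Mlkl and -0.133 to 0.084 for Casp8, which gave 0.019 with all 12 libraries in one fit, and the log2 ratio of Mlkl to Ripk3 differed by -0.026 to 0.454. In SB4 against BS2 it was -0.381 to 0.136 for Fadd and -0.063 to 0.309 for Tradd. Ripk2 was called in BS6 against BS2 with upper-quartile factors (1.02) and without BS6 replicate 1 (1.04). Upper-quartile factors and total counts moved the median of all genes in SB4 against SB2 from -0.015 to -0.145 and -0.105. Ripk4 passed the main filter in no comparison, nor did Ripk3, Mlkl and Zbp1 between SB4 and BS2. Without a filter none of these was called.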
